A study of Mus musculus with 4 samples.

Results

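The genes of the mouse major histocompatibility complex (MHC) and of antigen presentation were described in 4 RNA sequencing libraries of T helper 17 (Th17) cells. They comprise each gene whose symbol starts with H2- together with B2m, Tap1, Tap2, Tapbp, Nlrc5, Ciita and Cd74, chosen by name. No measured value entered that rule, but these genes and the lists used below were chosen with earlier results of these data known. There were 52 such genes among 50600 in the deposited tables, of which 45 carried an H2- symbol and 48 lay on chromosome 17. The annotation called 41 of them protein coding and 11 pseudogenes.

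The labels give 1 group, T-helper 17 primary cells from mice of strain C57BL/6NJ, with biological replicates 1 to 4 and no control or other condition. The file headers name a time of 72 hr, and the labels point to a protocol by which CD4+ T cells are differentiated, with neither age nor sex given. All libraries carry the same donor identifier, and nothing says whether they came from separate animals, so p-values measure only the spread between these libraries, which may be technical. The comparisons available were therefore the level of each gene and each library against the other 3, and a test of the latter kind compares 1 library with 3, not conditions.

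Class I molecules display peptides from the cell's interior on nearly all nucleated cells. They consist of a heavy chain encoded in the MHC and the invariant light chain B2m, and they are loaded with peptides that the Tap1 and Tap2 transporter carries into the endoplasmic reticulum, with tapasin (Tapbp) holding the empty molecule at the transporter. Class II molecules display peptides from the endosomes to CD4+ T cells. They are made of an alpha and a beta chain, assemble on the invariant chain Cd74, and are characteristic of B cells, dendritic cells and macrophages, where the transactivator Ciita switches their genes on. Nlrc5 has the corresponding part for class I genes, and both work through factors already bound at conserved promoter boxes.

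Total counts ran from 33123029 to 37746767 per library, and 3 counts, taken as a detection floor, stood for 0.0795 to 0.0906 CPM (counts scaled to library size). Levels of genes with fewer counts were not raised to this floor. Replicate 2 stood apart from the rest: a chi-square comparison of counts gave 44.6 to 49.4 per degree of freedom for pairs with replicate 2 and 4.44 to 6.61 for the other pairs. The labelled cell type was compared with 10 T cell and Th17 markers, all of which lay above 1 TPM. TPM is the number of transcripts scaled to gene length and to the size of the library, used as the level throughout. Of all genes tested, 70.7% lay above 1 TPM, so this count alone says little about cell type. Il17a, the signature cytokine, was at 2543, 505, 2181 and 2155 TPM in replicates 1 to 4, and the 10 markers summed to 7723, 2905, 7238 and 7028 TPM. In replicate 2, 6 of these markers were lower and 1 was higher by edgeR's quasi-likelihood test, while 10.2% of all genes tested were lower and 10.9% higher. Each result on replicate 2 below carries this difference between the libraries with it, and the part that it plays in those results was not tested.

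Promoter sequences were available for 35 of the 52 genes, 22 of them among the 32 that had at least 10 counts in all and were tested. They were taken from RefSeq for build GRCm38.p6 as the 250 bases before the annotated start. The windows shown are those of a highly expressed class I gene, H2-K1 (chr17:34000334-34000583, minus strand), a class I gene with a different pattern across libraries, H2-Q7 (chr17:35438905-35439154, plus strand), the class II genes H2-Aa (chr17:34287824-34288073, minus strand) and H2-Eb1 (chr17:34305617-34305866, plus strand), and Tap1 (chr17:34187306-34187555, plus strand). Each is written 5′ to 3′ on the gene's strand, and capitals mark matches, on either strand, to 6 short runs of letters. CTGATTGG is the Y box with its flank and overlaps the shorter CCAAT, which was searched alone as well. TGACG belongs to the element bound by Creb1 and its relatives. GGGGATTCC is a form of the kappaB element. GAAANNGAA is a form of the core of the element bound by interferon regulatory factors, and TTCNNNGAA is the interferon-gamma activated element.
H2-K1: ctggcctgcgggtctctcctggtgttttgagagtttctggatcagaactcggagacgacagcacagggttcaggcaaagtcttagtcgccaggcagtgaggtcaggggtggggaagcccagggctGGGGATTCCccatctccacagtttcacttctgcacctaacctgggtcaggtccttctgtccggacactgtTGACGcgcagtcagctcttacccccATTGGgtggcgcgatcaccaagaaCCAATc
H2-Q7: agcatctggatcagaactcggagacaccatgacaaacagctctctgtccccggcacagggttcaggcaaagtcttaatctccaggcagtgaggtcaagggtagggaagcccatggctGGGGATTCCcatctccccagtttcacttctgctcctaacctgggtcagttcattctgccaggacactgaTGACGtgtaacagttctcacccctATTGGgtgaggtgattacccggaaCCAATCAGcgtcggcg
H2-Aa: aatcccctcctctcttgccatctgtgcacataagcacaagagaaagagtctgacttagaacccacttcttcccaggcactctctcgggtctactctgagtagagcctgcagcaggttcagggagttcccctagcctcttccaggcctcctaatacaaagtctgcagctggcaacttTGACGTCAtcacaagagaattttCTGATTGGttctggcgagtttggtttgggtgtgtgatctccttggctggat
H2-Eb1: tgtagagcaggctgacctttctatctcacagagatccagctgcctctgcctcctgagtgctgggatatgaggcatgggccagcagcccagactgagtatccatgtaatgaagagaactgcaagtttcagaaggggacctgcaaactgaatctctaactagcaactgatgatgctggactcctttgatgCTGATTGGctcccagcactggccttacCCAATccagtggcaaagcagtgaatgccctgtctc
Tap1: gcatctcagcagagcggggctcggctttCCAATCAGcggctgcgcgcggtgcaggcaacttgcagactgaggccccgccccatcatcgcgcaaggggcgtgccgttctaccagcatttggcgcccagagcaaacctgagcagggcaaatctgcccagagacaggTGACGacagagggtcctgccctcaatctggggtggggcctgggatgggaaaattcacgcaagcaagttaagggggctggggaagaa
All 5 printed windows hold CCAAT letters, the core of the Y box. In H2-Aa and H2-Eb1 they are part of CTGATTGG read forward, close to the start, whereas H2-Q7 and Tap1 hold CTGATTGG on the other strand, and in Tap1 it lies near the far end of the window. H2-K1 and H2-Q7 share the GGGGATTCC letters of a kappaB site, which the printed class II windows do not hold. H2-Aa has TGACG letters on both strands, forming a palindrome in front of its CTGATTGG, whereas the H2-Eb1 window has the CTGATTGG and no TGACG.

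Over the 22 tested genes with a window, CCAAT was found in 21, all but H2-Q10, against 33.8% of the 32851 promoter windows in the table. A gene with more than 1 window was counted where any of its windows held the letters. The RefSeq starts did not always match the deposited genes. The H2-DMa window with CCAAT (chr17:34125268-34125517) lies well before the deposited start at 34135182, and the H2-D1, H2-DMb2 and Tapbp windows lie inside the deposited spans. CTGATTGG was found in 9 of 22 genes against 3.83% of windows, and TGACG in 9 of 22 against 17.8%. GGGGATTCC was found in 4 genes, all of them class I heavy chains (H2-K1, H2-D1, H2-Q6 and H2-Q7), against 0.213% of windows. The letters searched for the interferon-linked elements were found in few of the 22 genes and in few windows. GAAANNGAA was in 3 (B2m, H2-T22 and H2-T23) against 7.13% of windows, and TTCNNNGAA in 2 (H2-DMb2 and H2-M3) against 7.02%. Only these exact letters were searched, so other forms of the elements were missed, and a window without a match may still hold one. The run agtttcacttct stands unmarked in the H2-K1, H2-D1, H2-Q4, H2-Q6, H2-Q7 and H2-Q10 windows. On its other strand the parts of GAAANNGAA stand in swapped order, which the search could not match. The low count of GAAANNGAA therefore does not show that class I promoters lack such an element. The share of all windows with this run was not taken. These matches describe letters and not binding.

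Levels ranged from B2m, among the most abundant mRNAs of these cells, to genes with no count, and most of the tested genes lay above 1 TPM. Of the 52 genes, 16 had no count in any library, 4 had 1 count, and 32 had at least 10 and were tested against a level of 1 TPM by edgeR's quasi-likelihood fit with Benjamini-Hochberg adjustment over all genes tested. Of these, 28 lay above 1 TPM, 2 lay below and 2 passed in neither direction. Among all 17337 genes tested, 70.7% lay above and 16.5% below. The summed level of the 52 genes was 4822, 4627, 4631 and 4980 TPM in replicates 1 to 4.

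**Figure D1:**
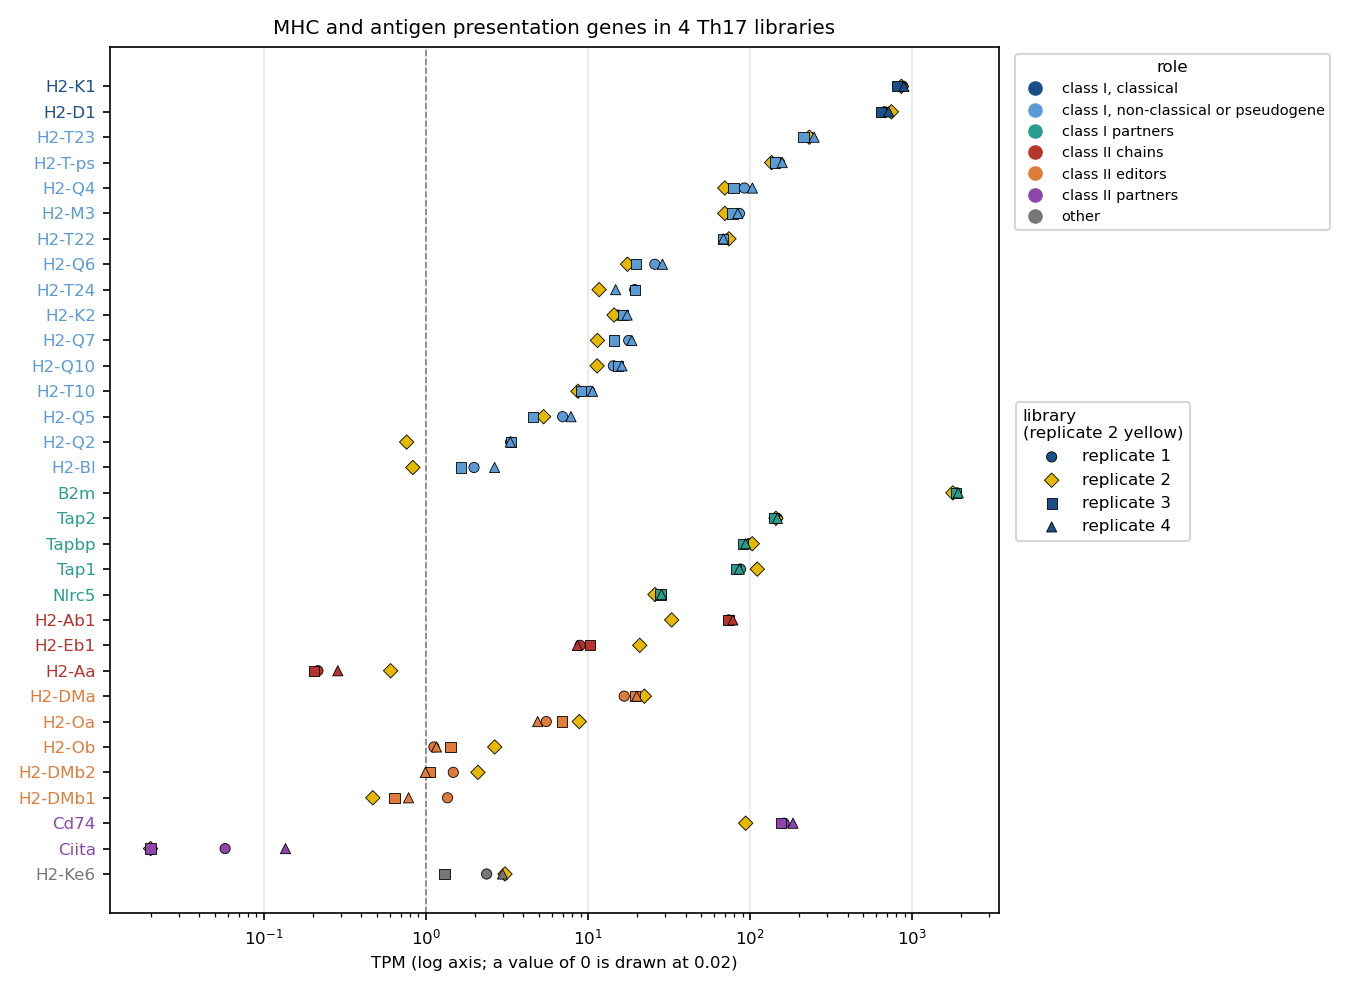
TPM of the 32 tested genes (log axis) in each of the 4 libraries, grouped by role, with replicate 2 in yellow and a dashed line at 1 TPM. B2m, H2-K1 and H2-D1 lie far to the right, Ciita and H2-Aa lie left of the line in every library, and replicate 2 stands away from the other libraries for H2-Ab1, H2-Eb1, H2-Q2 and Cd74.

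B2m, the class I light chain (chr2:122147686-122153083 in the deposited tables, build mm10), was the highest of the group. Its level was 1879, 1786, 1876 and 1930 TPM in replicates 1 to 4, a mean of 1868 ± 59.9 (SD, n = 4), which ranked 34 of 21764 protein-coding genes. The libraries lay close together, and replicate 2 was the lowest.

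The classical heavy chains followed. H2-K1 (chr17:33996017-34000333) was at 879, 859, 810 and 890 TPM, a mean of 860 ± 35.5 (SD, n = 4) and rank 127. H2-D1 (chr17:35262730-35267499) was at 676, 746, 646 and 718 TPM, a mean of 696 ± 44.2 (SD, n = 4) and rank 171. In each library H2-D1 was below H2-K1, with a log2 ratio of -0.30 ± 0.07 (SD, n = 4). An exact two-sided sign-flip test over the libraries gave p = 0.125, the smallest that 4 libraries allow. B2m was above the sum of H2-K1 and H2-D1 in each library, at 1.21, 1.11, 1.29 and 1.20 times that sum. Against the summed TPM of all class I heavy chains, pseudogenes included, it was lower, with a log2 ratio of -0.29 ± 0.07 (SD, n = 4), and the exact test gave p = 0.125 as well. The size of this ratio depended on the choices behind it: it was -0.17 with protein-coding heavy chains alone, and -1.83 for counts not corrected for length. The deposited length of B2m is 860 bases and that of H2-K1 2608.

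The non-classical class I genes and class I pseudogenes formed the largest set, with 30 listed, 14 tested and all 14 above 1 TPM. H2-T23, which encodes the Qa-1 heavy chain recognised by inhibitory receptors of natural killer cells, led them with 233, 232, 214 and 249 TPM. H2-T-ps, annotated as a pseudogene, was at 152, 136, 143 and 158 TPM. H2-M3, which presents formylated bacterial and mitochondrial peptides, was at 86.1, 69.9, 78.1 and 84.1 TPM. For all 3 the libraries lay within a narrow band next to the distance between these 3 genes.

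H2-Q4 was at 92.3, 69.9, 79.2 and 103 TPM, and H2-T22, a ligand for some gamma-delta T cell receptors, was at 72.9, 74.1, 67.8 and 68.5 TPM. Its close relative H2-T10 was far lower, at 10.3, 8.69, 9.07 and 10.7 TPM. H2-Q6 and H2-Q7, which encode the Qa-2 antigen, had means of 23.0 ± 5.22 and 15.6 ± 3.31 TPM (SD, n = 4). The means of H2-T24, H2-K2, H2-Q10 and H2-Q5 lay between 6.19 and 16.4 TPM, and those of H2-Q2 and H2-Bl were 2.69 and 1.78 TPM. The call of H2-Bl above 1 TPM (log2 level 0.83, edgeR adjusted p = 0.0215) was lost without replicate 1, 3 or 4, at 0.77, 0.86 and 0.56.

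The remaining 16 genes of that set were silent or close to it at this depth. H2-Q1, H2-T3, H2-M1, H2-M2, H2-M6-ps, H2-M9, H2-M11 and H2-M10.1, H2-M10.2, H2-M10.3, H2-M10.4, H2-M10.5-ps1 and H2-M10.6 had no count in any library, and H2-Q3, H2-M5 and H2-M10.5 had 1 count each. H2-T3 encodes the thymus leukaemia antigen, known from the gut epithelium, and the H2-M10 genes are known from the vomeronasal organ.

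The class I partners were all well above 1 TPM. Tap2 was at 147, 145, 141 and 148 TPM, the smallest relative spread among them. Tapbp was at 98.7, 103, 90.1 and 94.0 TPM and Tap1 at 87.4, 111, 82.4 and 85.9 TPM, so that the second subunit of the transporter exceeded the first in each library, by 1.69, 1.30, 1.72 and 1.72 times. Nlrc5 (chr8:94434356-94527272) was at 28.4, 25.9, 28.1 and 28.4 TPM.

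Class II genes were low as a group but uneven. The class II chains summed to 83.2, 54.3, 84.4 and 87.3 TPM, and their log2 ratio to the class I heavy chains was -4.90 ± 0.32 (SD, n = 4), and the exact test gave p = 0.125 as well. Most of the summed level came from 1 gene in each library, though in replicate 2 H2-Eb1 gave 20.9 of the 54.3 TPM. H2-Ab1 (chr17:34263209-34269418), the beta chain of I-A, was at 74.0, 32.9, 73.8 and 78.4 TPM, whereas H2-Aa (chr17:34282744-34287827), the alpha chain that pairs with it, had 4, 13, 4 and 6 counts, or 0.215, 0.606, 0.203 and 0.286 TPM. H2-Ab1 was 343, 54.2, 363 and 274 times as high as H2-Aa per length. H2-Aa lay below 1 TPM by 1.60 on the log2 scale, with an edgeR quasi-likelihood adjusted p of 0.0130.

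H2-Eb1 (chr17:34305877-34316199), the beta chain of I-E, was at 8.95, 20.9, 10.3 and 8.60 TPM. Its alpha-chain gene is disrupted in mice of this strain's haplotype, and H2-Ea-ps had no count in any library. H2-Eb2 and the pseudogene H2-Pa had none either, and H2-Pb had 1. Of the class II chains, 2 of the 6 listed thus lay above 1 TPM.

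Cd74, the invariant chain, was at 162, 94.1, 155 and 184 TPM, a mean of 149 ± 38.6 (SD, n = 4), and exceeded H2-Ab1 by 2.19, 2.86, 2.10 and 2.35 times. Ciita (chr16:10488178-10527564) had 3, 0, 0 and 8 counts over a long transcript, below 1 TPM (log2 level -4.37, edgeR quasi-likelihood adjusted p = 0.00624). Without replicate 1 or replicate 4 it fell under the minimum of 10 counts and was not tested. The class II transactivator was thus near the detection limit in libraries where its known targets Cd74 and H2-Ab1 were not.

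The peptide editors were low, and their subunits were unequal. H2-DMa, a subunit of the exchange factor that removes the invariant chain's peptide from class II molecules, was at 16.7, 22.3, 19.6 and 20.03 TPM. Its partner is encoded by H2-DMb1 and H2-DMb2, which had means of 0.813 ± 0.386 and 1.405 ± 0.507 TPM (SD, n = 4) and passed the test in neither direction. H2-DMa was 5.90, 8.70, 11.5 and 11.3 times the sum of both. Of the subunits of the exchange factor's inhibitor, H2-Oa was at 5.53, 8.84, 6.88 and 4.89 TPM and H2-Ob at 1.12, 2.66, 1.42 and 1.16 TPM. The call of H2-Ob above 1 TPM (log2 level 0.67, edgeR adjusted p = 0.0294) was lost without replicate 2 or 3, at 0.30 and 0.72.

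**Figure D2:**
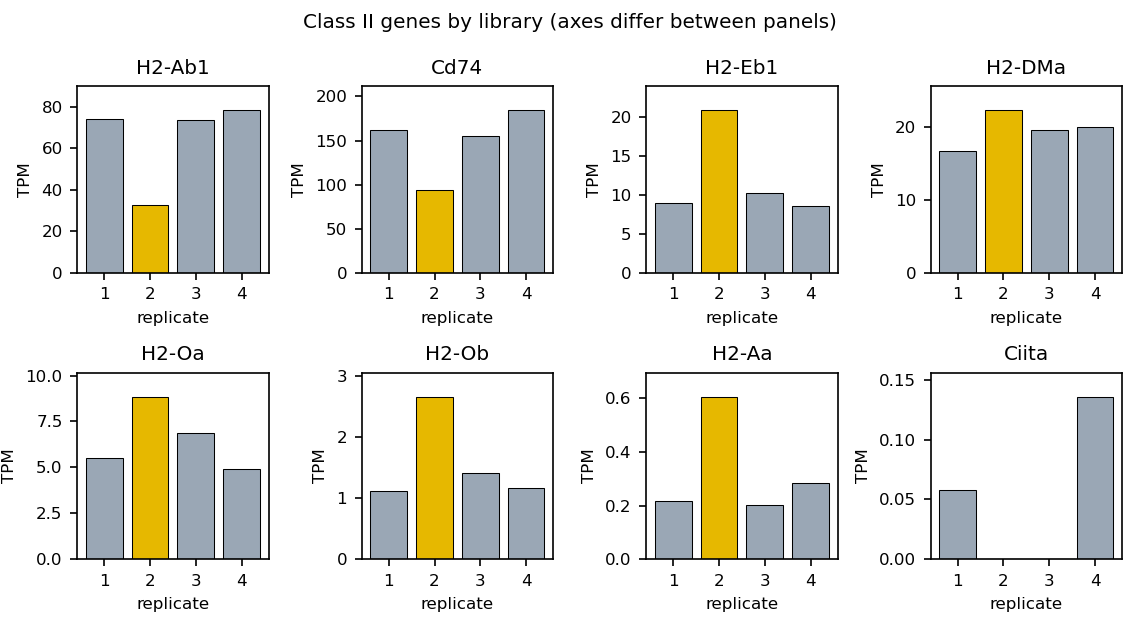
TPM of 8 class II genes in each library, with replicate 2 in yellow; each panel has its own axis that starts at 0. H2-Ab1 and Cd74 are lowest in replicate 2, H2-Eb1, H2-DMa, H2-Oa, H2-Ob and H2-Aa are highest there, and Ciita has a count in replicates 1 and 4.

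In bulk libraries, fewer cells of a type and less RNA per cell cannot be told apart, and class II transcripts can come from other cells in the culture. Markers of such cells were therefore read beside them. Of 10 B cell markers, 8 were tested and none lay above 1 TPM; they summed to 2.66, 3.01, 2.68 and 2.61 TPM, and Ms4a1, a surface antigen of mature B cells, was at most 0.0565 TPM. Of 16 dendritic cell and macrophage markers, 4 lay above 1 TPM, and the list summed to 19.6, 31.7, 20.8 and 20.5 TPM. C1qa, C1qb, Clec9a, Siglech, Cd209a and Lyz2 had no count in any library.

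The symbol H2-Ke6 does not name an MHC molecule: it encodes a steroid and fatty acid dehydrogenase that lies in the complex. It was at 2.37, 3.08, 1.30 and 2.97 TPM, and 85.4% of its exon bases overlap another annotated gene on the same strand, so its counts are uncertain.

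Replicate 2 differed from the other libraries in a part of these genes and in both directions. By edgeR's quasi-likelihood test with Benjamini-Hochberg adjustment over all genes, 5 of the 32 tested were higher and 7 lower, while 10.9% of all 17337 genes tested were higher and 10.2% lower. The median log2 change was -0.08 over the 32 genes and -0.01 over all genes, and the median absolute change was 0.40 and 0.24. Over the 24 of these genes with a mean of at least 5 TPM, the median absolute change was 0.21, so the larger value rests on the low genes. The value for all genes at that level was not taken. The level of replicate 2 lay outside the range of the other 3 libraries for 27 of the 32 genes, above it for 11 and below it for 16. Among the 17337 genes it lay outside for 12384, above for 4887 and below for 7497, a similar lean to lower levels. DESeq2 called 3 of the 32 higher and 4 lower, beside 8.23% and 8.17% of all genes.

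In replicates 1, 3 and 4, edgeR called 0 of the 32 genes higher and 0 lower when each library was set against the other 3, as it did for 0.0% of all genes, and DESeq2 called 0 as well. H2-Ke6 had a log2 change of -1.12 ± 0.42 (SE) in replicate 3, at 1.30 TPM against 2.81 ± 0.381 (SD, n = 3), and was not called. Replicate 2 is among the other 3 libraries in each of these comparisons. With replicate 2 left out, H2-Q4 was called lower in replicate 3, at 79.2 TPM against 92.3 and 103 in replicates 1 and 4. In that comparison 0.102% of all genes were lower and 0.512% higher.

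**Figure D3:**
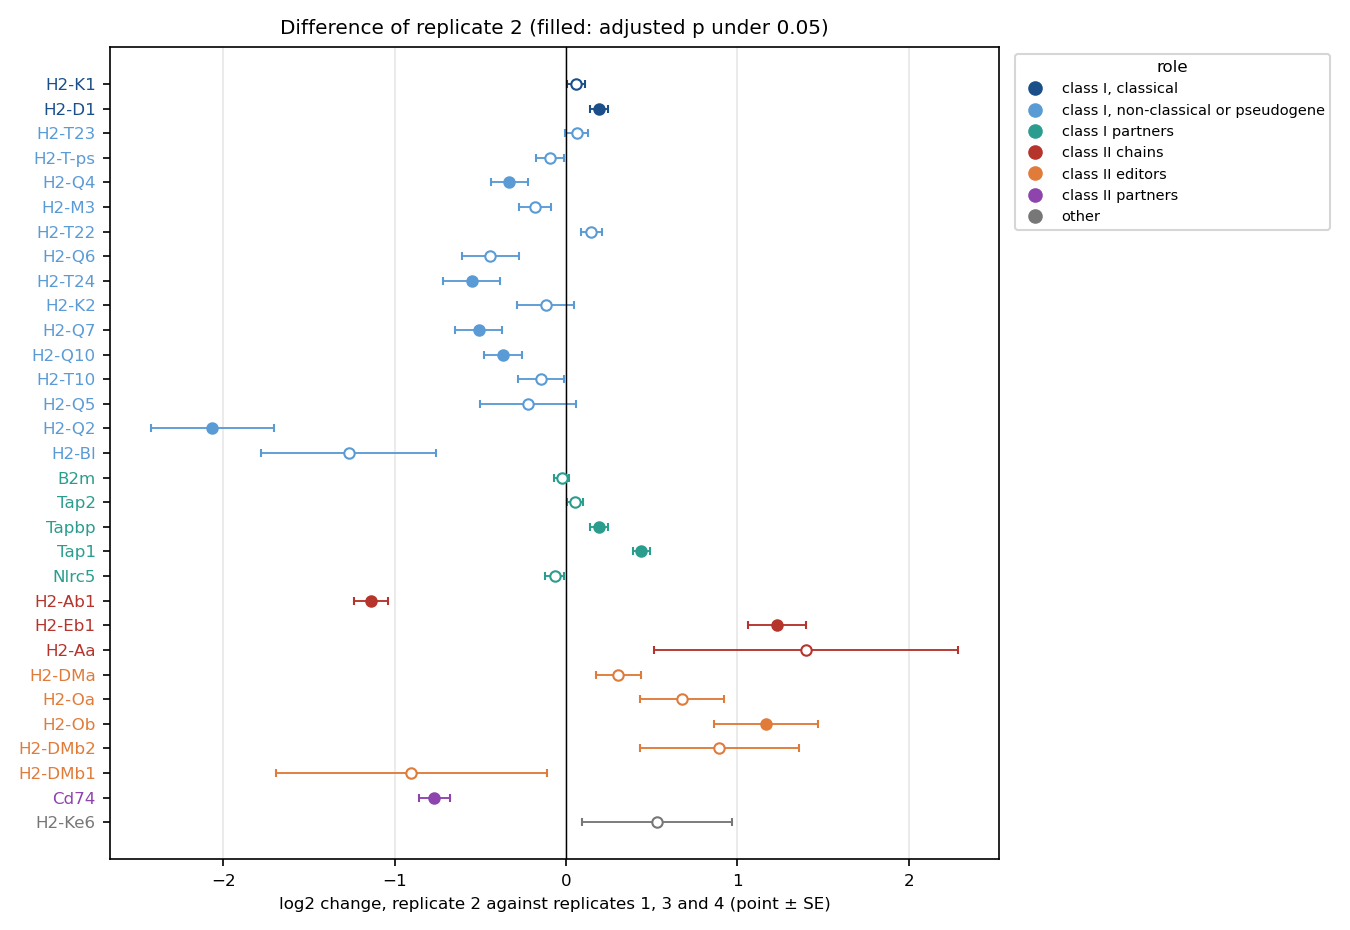
Log2 change of replicate 2 against replicates 1, 3 and 4 for 31 tested genes (point ± SE), filled where the adjusted p was under 0.05; Ciita, with 0 counts in replicate 2, is left out. H2-Ab1 and Cd74 lie left of 0 and H2-Eb1 and H2-Ob right of it, the class I partners Tap1 and Tapbp lie slightly right, and the 5 filled non-classical class I genes all lie left.

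Class II genes moved in opposite directions in replicate 2. H2-Ab1 was at 32.9 TPM against 75.4 ± 2.61 (SD, n = 3) in the others, a log2 change of -1.14 ± 0.10 (SE; edgeR quasi-likelihood adjusted p = 2.97e-06). H2-Eb1, which lies on the same strand within the same stretch of the complex, was at 20.9 TPM against 9.28 ± 0.891, a change of 1.23 ± 0.17 (SE; edgeR adjusted p = 0.000161). The other libraries did not overlap with replicate 2 for either gene, and the ratio of H2-Ab1 to H2-Eb1 was 1.57 there against 8.27, 7.17 and 9.12 in replicates 1, 3 and 4.

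Cd74 moved with H2-Ab1, at 94.1 TPM against 167 ± 15.4 (SD, n = 3), a log2 change of -0.77 ± 0.09 (SE; edgeR adjusted p = 3.82e-05). H2-Ob moved with H2-Eb1, with a change of 1.17 ± 0.30 (SE; edgeR adjusted p = 0.0150), which DESeq2 did not call (adjusted p = 0.0786). The other editors did not pass the test: their log2 changes were 0.68 for H2-Oa, 0.31 for H2-DMa, 0.90 for H2-DMb2 and -0.90 for H2-DMb1. H2-Oa passed it with no filter on counts (0.67, edgeR adjusted p = 0.0378) and without replicate 3 (0.82, edgeR adjusted p = 0.0176). H2-Aa, with 13 counts in replicate 2 and 4 to 6 elsewhere, was at 0.606 TPM against 0.235 ± 0.0447 (SD, n = 3) and did not pass either (edgeR adjusted p = 0.314).

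Among the dendritic cell and macrophage markers, 1 was higher and 1 lower in replicate 2. Flt3, a receptor of dendritic cell progenitors, was at 1.29, 11.5, 0.848 and 0.882 TPM, a log2 change of 3.58 ± 0.17, and Adgre1, the macrophage F4/80 antigen, changed by -0.54 ± 0.14. Cd68 was at 7.63, 12.1, 9.16 and 8.95 TPM without passing the test. The summed level of the list was thus highest in the library in which H2-Eb1 and H2-Ob were highest and H2-Ab1 and Cd74 were lowest. The rise of that sum was about as large as the rise of Flt3 alone, so it does not describe the list as a whole. The part of these markers in the differences was not tested. By edgeR's test 0 of 8 B cell markers were called in replicate 2, with 1 at an unadjusted p under 0.05.

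The non-classical class I genes that passed the test were all lower in replicate 2: 5 of the 14 tested were lower and 0 higher, beside 10.2% and 10.9% of all genes. H2-Q2 was at 3.33, 0.761, 3.36 and 3.32 TPM, a log2 change of -2.06 ± 0.36 (SE; edgeR adjusted p = 0.00106), with replicate 2 far below 3 nearly equal values. H2-T24 was at 19.4, 11.7, 19.6 and 14.8 TPM (-0.55 ± 0.17) and H2-Q7 at 17.8, 11.4, 14.5 and 18.7 TPM (-0.51 ± 0.14). H2-Q10 changed by -0.37 ± 0.11 and H2-Q4 by -0.33 ± 0.11. The calls of H2-T24, H2-Q10 and H2-Q4 were lost with DESeq2 (adjusted p = 0.0554, 0.0673 and 0.304), and that of H2-Q4 also with a robust dispersion prior in edgeR (adjusted p = 0.25).

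H2-Q6 was lowest in replicate 2 as well, with a log2 change of -0.44 ± 0.17 that did not pass the test (edgeR adjusted p = 0.0857), but passed it without replicate 1 (-0.41) or replicate 3 (-0.58). H2-Bl had 16 counts in replicate 2 and 29 to 50 elsewhere, a change of -1.27 ± 0.51 that did not pass. The values for H2-T23, H2-T-ps, H2-M3, H2-T22, H2-K2, H2-T10 and H2-Q5 ran from -0.22 to 0.15, and none passed; H2-T22 was called higher (0.18) where replicate 1 was left out.

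Log2 changes in the classical class I genes and their partners were small, and those that passed the test were higher. Tap1 had the largest change, 0.44 ± 0.05 (SE; edgeR adjusted p = 1.82e-05), at 111 TPM against 85.2 ± 2.58 (SD, n = 3). H2-D1 was higher by 0.19 ± 0.05 (edgeR adjusted p = 0.0209), and Tapbp by 0.19 ± 0.05 (edgeR adjusted p = 0.0186), a call that DESeq2 did not make (adjusted p = 0.0636). The log2 changes of B2m (-0.02), H2-K1 (0.06), Tap2 (0.05) and Nlrc5 (-0.07) did not pass.

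Tap1 lies in a compact cluster with Tap2 and the immunoproteasome subunits Psmb9 and Psmb8, which cut the peptides that the transporter carries. In order along chromosome 17 these are Psmb9 (chr17:34181988-34187764), Tap1 (chr17:34187553-34197225), Psmb8 (chr17:34197721-34201454) and Tap2 (chr17:34203527-34216321), and the printed Tap1 window lies within the span of Psmb9. Psmb9 was at 35.5, 49.1, 35.4 and 36.4 TPM, a log2 change of 0.52 ± 0.08, and Psmb8 at 247, 302, 256 and 245 TPM, a change of 0.34 ± 0.05. Tap1, Psmb9 and Psmb8 were thus higher in replicate 2, while the log2 change of Tap2 was 0.05. This cluster was looked at after the values of its genes were seen, so their shared direction is not separate evidence.

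**Figure D4:**
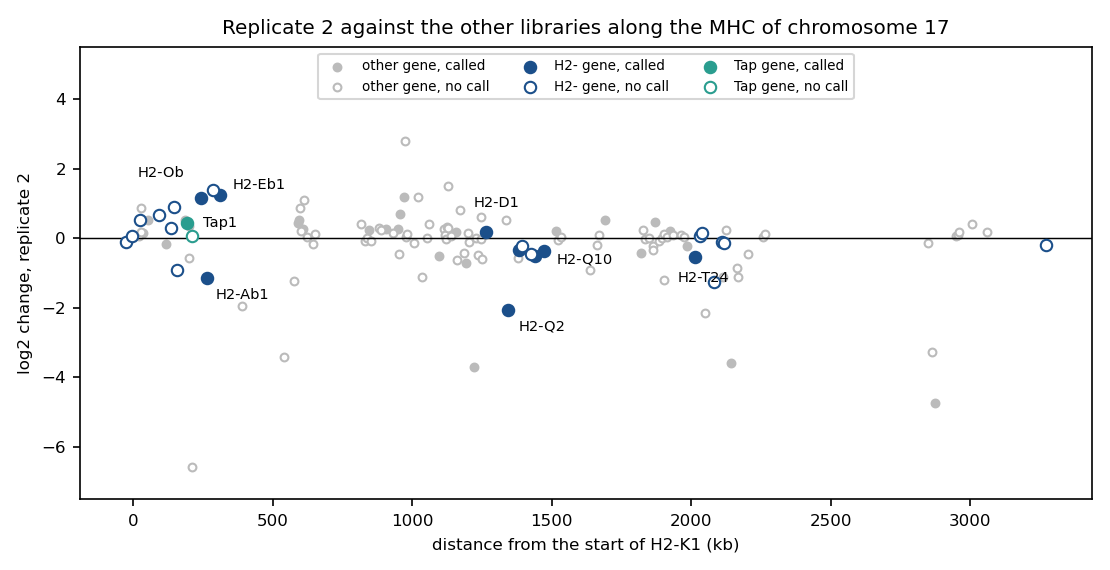
Log2 change of replicate 2 against the other libraries for the tested genes on chromosome 17, by distance in kb from the start of H2-K1; filled points passed the test, blue marks H2- genes, green Tap1 and Tap2, and grey all other genes between the outermost H2- genes. The class II stretch a short way to the right of H2-K1 holds H2-Ob and H2-Eb1, which were higher, and H2-Ab1, which was lower, and the called H2-Q genes to the right of H2-D1 are all lower.

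Along the complex, from 33974831 to 37483552 on chromosome 17, 272 other genes lie between the outermost H2- genes. Of these, 108 were tested, 79 lay above 1 TPM, beside 70.7% of all genes, and 17 were higher and 8 lower in replicate 2, beside 10.9% and 10.2%.

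The other genes of both pathways were read from lists, whose counts stand beside 70.7% of all genes above 1 TPM and, in replicate 2, 10.9% higher and 10.2% lower. All 14 class I loading and trimming genes lay above 1 TPM, and in replicate 2 by edgeR's test 2 were higher (Psmb9 and Psmb8) and 4 lower. The chaperones Hspa5, Calr and Pdia3 had the highest means, and Hspa5, the endoplasmic reticulum chaperone BiP, was lower by the most, at 1178, 852, 1187 and 1182 TPM (-0.41 ± 0.04). Of 11 tested class II processing genes, 10 lay above 1 TPM, and in replicate 2 there were 3 higher and 1 lower. Ifi30, the lysosomal thiol reductase, was at 178, 236, 168 and 202 TPM (0.43 ± 0.09), Cst3, a cathepsin inhibitor, changed by 0.36 ± 0.06, and Lamp1, a lysosomal membrane protein, was not called (0.10). Ctsh, a lysosomal protease, had the largest change (1.62 ± 0.49) at a mean of 0.468 TPM, and March1, the ligase that removes class II from the surface, had no count.

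All 15 transcription factors listed for MHC promoters lay above 1 TPM. In replicate 2, 0 were higher and 3 lower by edgeR's test, beside 10.9% and 10.2% of all genes. At an unadjusted p under 0.05 there were 8 of the 15, and 5550 of all 17337 genes. Irf8, an interferon regulatory factor, was at 27.6, 3.95, 25.9 and 26.4 TPM, a log2 change of -2.69 ± 0.10, so that replicate 2 lay far below the other libraries. Nfkb1, the NF-kappaB subunit p50, changed by -0.26 ± 0.05 and Nfyb, a subunit of the factor that binds CCAAT, by -0.25 ± 0.05. Rela was not called (-0.08), nor were the X-box factors Rfx5 (0.22), Rfxap (0.03) and Rfxank (-0.03).

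Of 19 interferon-gamma response genes, 17 lay above 1 TPM, with 4 higher and 5 lower in replicate 2; Psmb8 and Psmb9 are on this list too. Cxcl10, an inducible chemokine, was at 3.32, 1.05, 3.42 and 4.48 TPM (-1.77 ± 0.34) and Gbp2, a guanylate-binding protein, at 121, 59.6, 129 and 131 TPM (-1.03 ± 0.06). Jak2, a kinase of the receptor, was lower (-0.51 ± 0.05) and Jak1 was not called (0.00).

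Co-stimulatory ligands, which accompany antigen presentation, were all above 1 TPM, 9 of 9, with 4 higher and 1 lower in replicate 2. Cd80 was at 122, 178, 124 and 122 TPM (0.60 ± 0.05), Tnfsf4, the OX40 ligand, changed by 0.48 ± 0.05 and Cd40 by 0.69 ± 0.14, and Pdcd1lg2, an inhibitory ligand, changed by -0.30 ± 0.08. Of 12 class I-like genes outside the MHC, 5 were tested and 4 lay above 1 TPM. Ulbp1, a ligand of an activating receptor, was at 46.4, 49.95, 46.4 and 42.1 TPM and was the 1 gene called in replicate 2 (0.21 ± 0.06). Mr1, which presents vitamin metabolites, and Procr, the protein C receptor, had means of 9.90 and 4.45 TPM, and Azgp1, Mill1 and Mill2 had no count.

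MHC genes are close copies of each other, and the recorded counting command holds no option to keep reads that fit several genes. How much sequence each gene has to itself was therefore measured as the share of 50-base words of its annotated transcripts found in no other gene's transcripts. The median over the 32 tested genes was 90.6%, and 10 genes lay under 80%. H2-T22 and H2-T10 had 65.5% and 67.1% to themselves, with each other as the closest copy. H2-Q5 had 63.6%, the lowest of the class I genes, H2-Q6, H2-Q7 and H2-Q4 had 68.0%, 73.6% and 78.2%, and H2-T-ps had 70.6%, so levels in this set are uncertain and may be too low. H2-DMb1 and H2-DMb2 had 77.3% and 75.2%, which bears on their level next to that of H2-DMa, which shared no word. H2-K1 and H2-D1 had 90.4% and 87.2%. H2-Ab1, H2-Eb1, Cd74, Nlrc5 and B2m shared no word with another gene, and H2-Aa had 99.5% to itself. Both H2-Q2 (83.9%) and H2-Q10 (81.0%) lie between these.

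**Figure D5:**
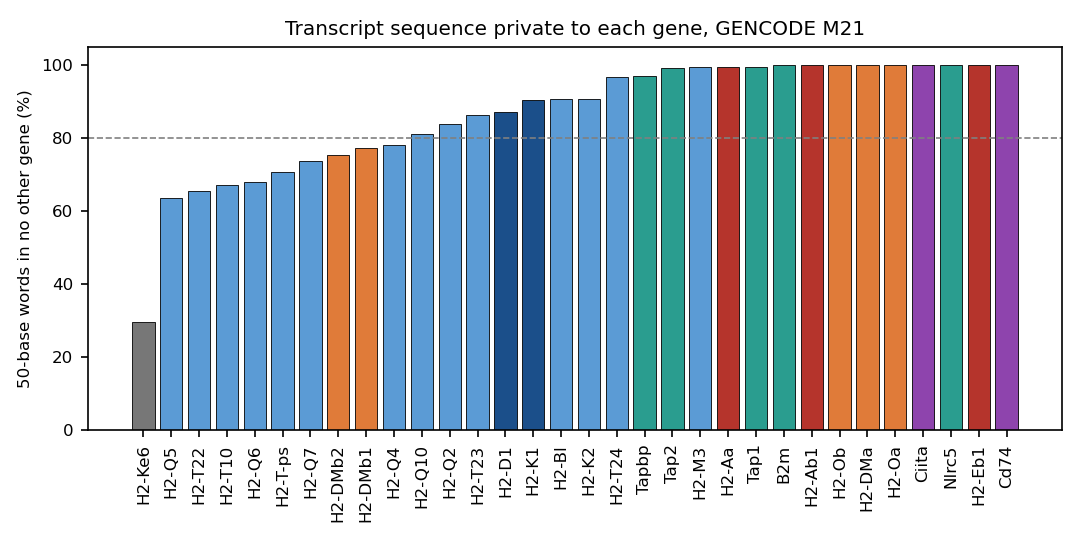
Share of 50-base transcript words found in no other gene, in percent, for the 32 tested genes, with bars coloured by role as in the plot of TPM by library and a dashed line at 80%. H2-Ke6 is lowest at 29.5%, the H2-Q and H2-T genes fill the left, and the class II chains and class I partners lie near 100%.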

How the data were processed

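RNA sequencing counts of 4 Th17 libraries were used. The authors assigned paired, reverse-stranded fragments to GENCODE M13 genes with featureCounts 1.4.6-p4, per the file headers, and the labels give build mm10. The deposited counts are raw, 1 table per library, with each gene's summed exon length. Aligner: not given in the sources used here. Labels say total RNA, while the linked library protocol is titled for poly(A)+ RNA, which bears on transcripts without a tail. By default this counter drops reads that fit several genes.

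Symbols came from GENCODE M21 (50376 of 50600 identifiers matched, 224 had none). TPM was computed here from count and length. Genes with at least 10 summed counts were tested with edgeR 4.0.16 in R 4.3.3 (TMM, quasi-likelihood F test, Benjamini-Hochberg, threshold 0.05): the level against 1 TPM, and each library against the other 3, which assumes that the lone library varies like the rest. SE was obtained by dividing the size of the log2 change by the root of F. DESeq2 1.42.0, other filters and scalings, and leaving out each library were alternatives. On simulated data with 200 changed genes the steps were tested before use. Total counts bear on counting error only, while the SD and SE given also take in the spread between libraries. All tested members were named, and of each list the 3 highest and the 2 with the largest called change, besides a few named after their values were seen. The genes and lists were chosen with earlier results of these data known.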

Additional observations from a re-analysis of the deposited data

Results flagged for a closer look

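In 4 of the 35 values examined, 1 library stood apart from the other 3 by a gap that filled most of the group's range, and chance gives about 1 in 20. In each case this was replicate 2. The share of all genes with such a gap was not taken, and some of the values are ratios built from the same genes. Replicate 2 lay outside the range of the other libraries for 12384 of all 17337 genes tested. H2-Ab1 was at 32.9 TPM there and at 73.8 to 78.4 in the others, H2-Eb1 at 20.9 TPM against 8.60 to 10.3, and H2-Q2 at 0.761 TPM against 3.32 to 3.36. Nlrc5 was at 25.9 TPM against 28.1 to 28.4, but its difference did not pass edgeR's quasi-likelihood test (log2 change -0.07 ± 0.06, adjusted p = 0.473).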

How the results depend on the processing

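No result changed direction under the alternatives that were run. With DESeq2, 3 genes in place of 5 were higher and 4 in place of 7 lower in replicate 2; under every setting run, Cd74, H2-Ab1, H2-D1, H2-Eb1, H2-Q2, H2-Q7 and Tap1 were called. Genes below 1 TPM numbered 2, but 6 with no filter on counts, 0 with at least 100 counts, and 1 to 2 with a library left out, since the filter decides which low genes are tested. Without replicate 2, H2-Q4 was called lower in replicate 3, beside 0.102% of all genes. The robust prior and the ratio without pseudogenes were chosen after seeing the data. No paired analysis was possible because there is 1 group. Without length correction, the log2 ratio of B2m to the heavy chains was -1.83 in place of -0.29. Depth limits what can be said of the genes with 0 or 1 counts.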
